A study of Mus musculus with 6 samples.

Results

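The 8 genes described here are the TAM receptors Mertk, Axl and Tyro3, their ligands Gas6 and Pros1, and Mfge8, Elmo1 and Gulp1, which act beside them in the uptake of dying cells. They were chosen by name for their known roles, with earlier results of these data in hand. All 8 were found among the 17469 genes with deposited values. RNA-seq had been run on tdTomato+ cells that were sorted from cultures of bone marrow stromal cells (BMSCs), the marrow cells that attach and grow in a dish, and that the study calls OB progenitors. All mice were 6 months old, untreated, and carried OCN-Cre, in which the osteocalcin promoter drives Cre recombinase, and Ai9, a reporter allele that gives tdTomato once Cre has acted. The 3 control libraries came from OCN-Cre;Ai9 mice. The 3 TgAPPsweOCN;Ai9 libraries came from mice that in addition carried LSL-hAPPswe, human amyloid precursor protein with the Swedish mutation behind a stop cassette that Cre removes. The sort selected cells by reporter, so a cell in which the osteocalcin promoter had acted at any earlier time was kept, and the marrow was grown for 7 days and again for 3 days after a passage. The number of mice behind a library was not given in the sources used here, so p-values measure only the spread between these libraries, which may in part be technical.

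Efferocytosis is the uptake of dying cells by phagocytes such as macrophages, which see phosphatidylserine that a dying cell turns to its outer surface. Mertk, Axl and Tyro3 are receptor tyrosine kinases that do not touch this lipid themselves but bind it through Gas6 or protein S (Pros1), vitamin K-dependent proteins that bridge the lipid and the receptor. Gas6 binds all TAM receptors and protein S binds Tyro3 and Mertk, and the signal both drives uptake and restrains the response to interferons and inflammatory stimuli. Mfge8 is a secreted bridge between the same lipid and alpha-v integrins, Elmo1 is the partner with which Dock proteins activate Rac below such receptors, and Gulp1 is an engulfment adaptor.

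Libraries held 19340810 to 19801060 estimated counts in the control group and 21677461 to 22037840 in the TgAPPsweOCN group, and 3 counts, the smallest level taken as detectable, equalled 0.136 to 0.155 CPM (counts scaled to the library total), a floor that covers counting error only. Defining markers of macrophages were abundant in cells named for the osteoblast lineage. The 15 macrophage markers summed to 18795 to 19548 FPKM (a level per length of transcript and depth of library) in controls and to 15696 to 19621 FPKM in TgAPPsweOCN. The 15 osteoblast lineage and stromal markers summed to 137 to 160 and 104 to 181 FPKM, and Bglap, which encodes osteocalcin, averaged 0.857 and 0.273 FPKM, while Col1a1 averaged 45.5 and 34.9 FPKM. Of these stromal markers Dcn and Lum were up-regulated and 0 were down-regulated. Both were scarce in controls, at 0.447 and 0.01 FPKM, and had 5.97 ± 4.51 and 0.767 ± 0.123 FPKM (SD, n = 3) in TgAPPsweOCN. By the edgeR adjusted p alone 3 of 14 tested stromal markers rose and 2 fell, against 32.5% and 31.5% of all tested genes. The 2 were Sp7 (log2 fold change -0.78, edgeR adjusted p 0.00707) and Pdgfrb (-0.55, edgeR adjusted p 0.00282). Macrophage markers moved in both directions, with 5 up and 4 down and a median log2 fold change of -0.07. Among the defining ones Csf1r fell from 1214 to 370 FPKM, Adgre1 rose from 563 to 1776 FPKM, and Ptprc had 93.9 and 124 FPKM. Osteoclast markers summed to 12.9 to 15.0 FPKM in controls and 97.8 to 221 FPKM in TgAPPsweOCN, with Acp5, Mmp9 and Ocstamp up. Of the other osteoclast markers Ctsk fell from 6.94 to 4.67 FPKM (log2 fold change -0.36, edgeR adjusted p 0.0372), Dcstamp was at 0.370 and 0.207 FPKM (edgeR adjusted p 0.0973), and Calcr was at 0 in all libraries but TgAPPsweOCN replicate 1 (0.01 FPKM). Lymphocyte and epithelial markers summed to at most 0.16 FPKM in any library, dendritic cell markers to at most 1.11 FPKM and endothelial markers to at most 4.32 FPKM, while neutrophil markers summed to 12.8 to 53.7 FPKM in controls and 18.4 to 51.6 FPKM in TgAPPsweOCN. The part of any of these markers in the results below was not tested, and in bulk RNA fewer cells of a type and less RNA per cell cannot be told apart. App, for which the deposited table holds a single entry that does not separate the human transgene from the mouse gene, rose from 279 ± 3.50 to 330 ± 4.18 FPKM (SD, n = 3), a log2 fold change of 0.45 with an edgeR adjusted p of 7.87e-05.

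Transcripts of the best-expressed receptors, of both ligands and of Mfge8 were lower in TgAPPsweOCN cells, and Elmo1 transcripts were higher. Up- and down-regulated here means that edgeR's quasi-likelihood test over 12701 genes gave a p of at most 0.05 after Benjamini-Hochberg adjustment and that the fold change was no smaller than 1 in size on the log2 scale. By that rule 3 of the 8 genes were down-regulated (Gas6, Mfge8 and Mertk) and 0 were up-regulated, where 9.2% of all tested genes were down-regulated and 8.9% up-regulated. By the adjusted p alone 5 of the 8 fell (the same 3 with Axl and Pros1) and 1 rose (Elmo1), against backgrounds of 31.5% and 32.5%. The median log2 fold change of the 8 was -0.70, and that of all tested genes was -0.02.

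The promoters of Mertk and Gas6, the receptor and the ligand that fell most, and of Elmo1, the one gene of the 8 that rose, are shown for the sequence just before the start of each gene. Each is the 250 bases that precede the RefSeq start, read 5′ to 3′ on the gene's own strand in build GRCm38.p6, the assembly that mm10 denotes. Capitals mark every match to one of 7 motifs.
Mertk, chr2:128698665-128698914, plus strand: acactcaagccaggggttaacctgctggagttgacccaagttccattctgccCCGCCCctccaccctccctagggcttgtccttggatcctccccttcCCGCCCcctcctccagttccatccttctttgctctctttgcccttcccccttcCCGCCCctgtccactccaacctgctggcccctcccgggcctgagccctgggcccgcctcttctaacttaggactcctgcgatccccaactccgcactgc
Gas6, chr8:13494536-13494785, minus strand: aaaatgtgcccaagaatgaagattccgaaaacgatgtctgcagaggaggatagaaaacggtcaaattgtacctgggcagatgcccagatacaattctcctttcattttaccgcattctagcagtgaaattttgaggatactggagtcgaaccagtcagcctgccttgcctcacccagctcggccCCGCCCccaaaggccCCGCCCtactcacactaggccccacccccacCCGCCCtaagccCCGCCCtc
Elmo1, first RefSeq start, chr13:20090257-20090506, plus strand: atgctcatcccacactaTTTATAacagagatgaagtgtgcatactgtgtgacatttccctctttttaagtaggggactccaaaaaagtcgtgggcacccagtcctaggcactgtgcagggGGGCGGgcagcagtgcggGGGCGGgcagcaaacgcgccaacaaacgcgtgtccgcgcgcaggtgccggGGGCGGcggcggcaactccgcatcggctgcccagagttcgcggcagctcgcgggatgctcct

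Each motif was searched on both strands, and matches that overlap run together in capitals. The letters taken for a GC box, the usual site of Sp1, were GGGCGG. For a TATA box, which places the start of transcription, they were TATAAA. The core of a site for the macrophage factor PU.1 was searched as GAGGAA, and that of the stress-responsive factor AP-1 as TGANTCA. A gamma-activated site, an element of interferon-responsive genes, was searched as TTCNNNGAA. An E-box was taken as CACGTG, and a MARE half-site as TGCTGAC. All capitals in the Mertk and Gas6 windows are GC boxes, 3 in Mertk, the nearest 94 bases before the start, and 4 in Gas6, all within the last 66 bases. Elmo1 holds 3 GC boxes and a TATA box match, the latter 228 bases before the start. A GC box occurred in 32.7% and a TATA box in 12.4% of the 32851 mouse promoter windows of the same length. Mfge8, whose window is not shown, holds 4 GC boxes and a PU.1 core, and Axl holds 1 of each. Bases just after the start were found in an annotated transcript of the same gene for Mfge8, but not for Axl or the windows shown. A PU.1 core occurred in 23.3% of all windows. Gamma-activated site letters, found in 7.02% of windows, were in the Pros1 window and at the second Elmo1 start, and the deposited counts do not separate the Elmo1 starts. AP-1, E-box and MARE letters, found in 6.75%, 6.02% and 3.81% of all windows, were in 0 windows of the 8 genes. G and C made up 63.6% of the Mertk window, 54.8% of the Gas6 window and 61.6% of the Elmo1 window, where the median over all windows was 52.4%. CpG pairs stood at 0.891 of the number that base composition predicts in Elmo1, 0.570 in Gas6 and 0.351 in Mertk (median of all windows 0.373). These matches describe the letters of the windows only.

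Mertk (Entrez 17289, chr2:128698915-128803162, plus strand) is the TAM receptor best known for the clearance of apoptotic cells by resting macrophages. Controls held 46.99, 46.01 and 49.3 FPKM of its transcript, against 12.3, 19.74 and 16.9 FPKM in TgAPPsweOCN. The groups did not overlap, and the highest TgAPPsweOCN library stood well under the lowest control. Means were 47.4 ± 1.69 and 16.3 ± 3.75 FPKM (SD, n = 3), so that TgAPPsweOCN cells held 34.4% of the control level. The log2 fold change was -1.39 (SE 0.128, 95% interval -1.68 to -1.09), a 2.61-fold fall with an edgeR adjusted p of 2.48e-05, and 4.55% of all tested genes had a lower log2 fold change. Fold changes from edgeR are relative to its TMM scaling, while FPKM values are scaled to all mapped fragments. Without TMM the median of all tested genes lay at -0.23 in place of -0.02 on the log2 scale, and the falls of these genes are correspondingly larger in FPKM and the rise of Elmo1 smaller.

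Axl (Entrez 26362, chr7:25756500-25788924, minus strand) is the TAM receptor that binds Gas6 but not protein S and which is typically induced by interferons and inflammatory stimuli. Control libraries held 87.99, 91.64 and 90.95 FPKM and TgAPPsweOCN libraries 41.68, 44.99 and 45.25 FPKM. Spread within each genotype was small, and all 3 TgAPPsweOCN values lay near 48.8% of the control mean (90.2 ± 1.94 to 44.0 ± 1.99 FPKM, SD, n = 3). Axl fell by 0.82 on the log2 scale (SE 0.0526, 95% interval -0.94 to -0.70, edgeR adjusted p 3.14e-06), which is short of the fold threshold. With library totals as the only scaling the log2 fold change was -1.04, past both thresholds.

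Tyro3 (Entrez 22174, chr2:119797740-119818104, plus strand), the TAM receptor most at home in the nervous system, was barely present. Control libraries had 34, 32 and 29 estimated counts of it, and TgAPPsweOCN libraries 20, 27 and 14. These correspond to 0.427 ± 0.0289 and 0.237 ± 0.0702 FPKM (SD, n = 3). All 3 TgAPPsweOCN libraries stood lower, but the log2 fold change of -0.58 (SE 0.279) had a 95% interval from -1.22 to 0.06 and an edgeR adjusted p of 0.0977. Over 14 alternatives that p ran from 0.0210 to 0.296, and leaving out TgAPPsweOCN replicate 2 alone brought it to 0.0479.

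**Figure D1:**
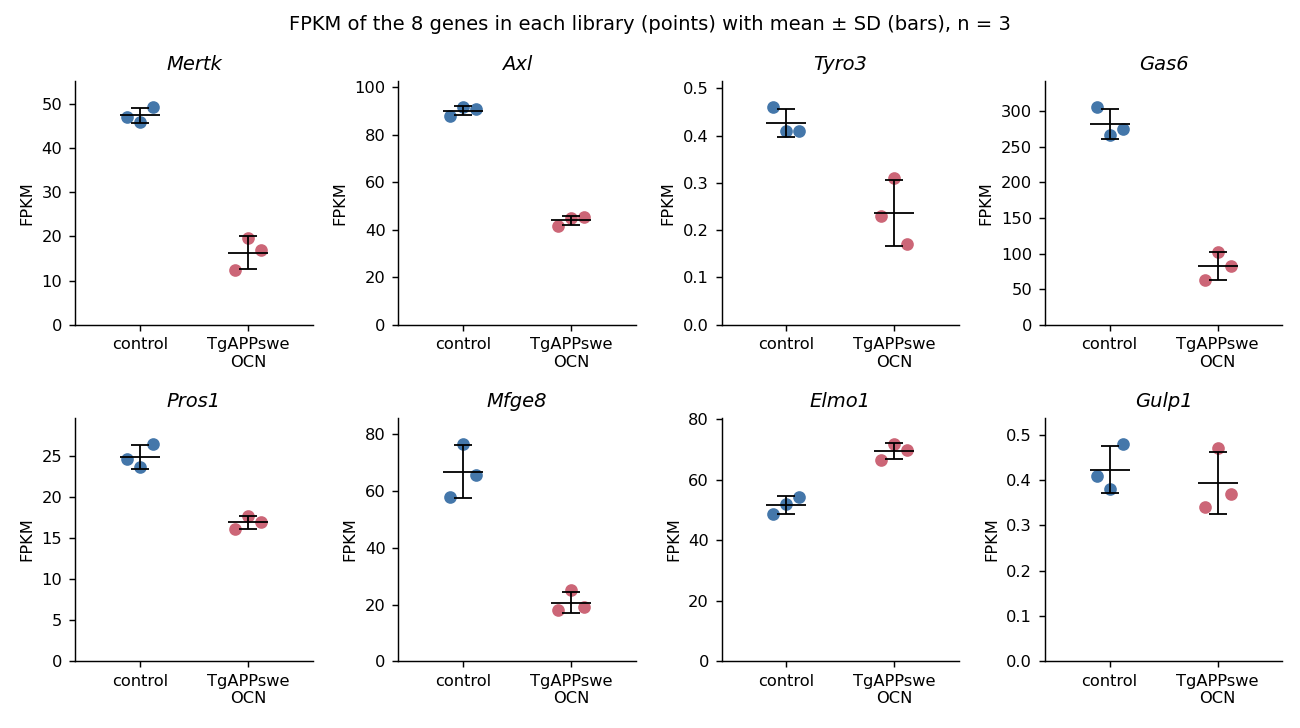
FPKM of each of the 8 genes in the 3 control (blue) and 3 TgAPPsweOCN (red) libraries, 1 panel per gene with its own axis from 0. Points are libraries, long bars are means and short bars are 1 SD. Mertk, Axl, Tyro3, Gas6, Pros1 and Mfge8 are lower in every TgAPPsweOCN library, Elmo1 is higher in every one, and the Gulp1 groups overlap.

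Per length of transcript, Axl was the leading TAM receptor in all 6 libraries, Mertk came next, and Tyro3 made up 0.273% to 0.477% of the summed receptor FPKM. That sum was 138 ± 2.61 FPKM in controls and 60.5 ± 5.63 FPKM in TgAPPsweOCN (SD, n = 3), or 43.8% of the control level. Mertk supplied 34.7%, 33.3% and 35.0% of the sum in controls and 22.7%, 30.4% and 27.1% in TgAPPsweOCN. The shares did not overlap, so the smaller pool of receptor RNA was also more weighted to Axl. The FPKM ratio of Axl to Mertk was 1.87, 1.99 and 1.84 in controls and 3.39, 2.28 and 2.68 in TgAPPsweOCN. It was higher in all 3 TgAPPsweOCN libraries, with a mean log2 change of 0.53 (1.44-fold). An exact two-sided permutation test gave p = 0.1, the smallest that 3 libraries against 3 allow in this test, which therefore cannot reach 0.05.

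Gas6 (Entrez 14456, chr8:13465374-13494535, minus strand), the ligand of all 3 receptors, had the highest mean FPKM of the 8 genes in both genotypes and the largest fall, although Elmo1 stood above it in TgAPPsweOCN replicate 1 (66.54 against 62.34 FPKM). Control levels were 305.9, 266.84 and 274.49 FPKM, and TgAPPsweOCN levels were 62.34, 102.55 and 82.14 FPKM. No TgAPPsweOCN library came near the control range, although the highest and the lowest of them differed more than any pair of controls in proportion. Means were 282 ± 20.7 and 82.3 ± 20.1 FPKM (SD, n = 3), or 29.2% of the control level. Gas6 had a log2 fold change of -1.57 (SE 0.150, 95% interval -1.91 to -1.22), a 2.96-fold fall (edgeR adjusted p 3.07e-05), and 3.22% of tested genes lay lower.

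Pros1 (Entrez 19128, chr16:62854307-62929346, plus strand) encodes protein S, which is also an anticoagulant of the blood. Its levels were 24.61, 23.69 and 26.51 FPKM in controls and 16.16, 17.77 and 16.94 FPKM in TgAPPsweOCN. The groups did not overlap, with means of 24.9 ± 1.44 and 17.0 ± 0.805 FPKM (SD, n = 3). The fall was far smaller than that of Gas6, at -0.33 on the log2 scale (SE 0.0625, 95% interval -0.47 to -0.19, edgeR adjusted p 0.00168), or 1.26-fold. Gas6 thus stood above Pros1 by a smaller margin in TgAPPsweOCN cells. The FPKM ratio of Gas6 to Pros1 was 12.4, 11.3 and 10.4 in controls and 3.86, 5.77 and 4.85 in TgAPPsweOCN. All 3 TgAPPsweOCN ratios were lower, by 2.38-fold on average (log2 change -1.25), and the exact two-sided permutation p was again 0.1, the smallest this test allows. Both ligands together summed to 330.51, 290.53 and 301 FPKM in controls and to 78.5, 120.32 and 99.08 FPKM in TgAPPsweOCN.

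**Figure D2:**
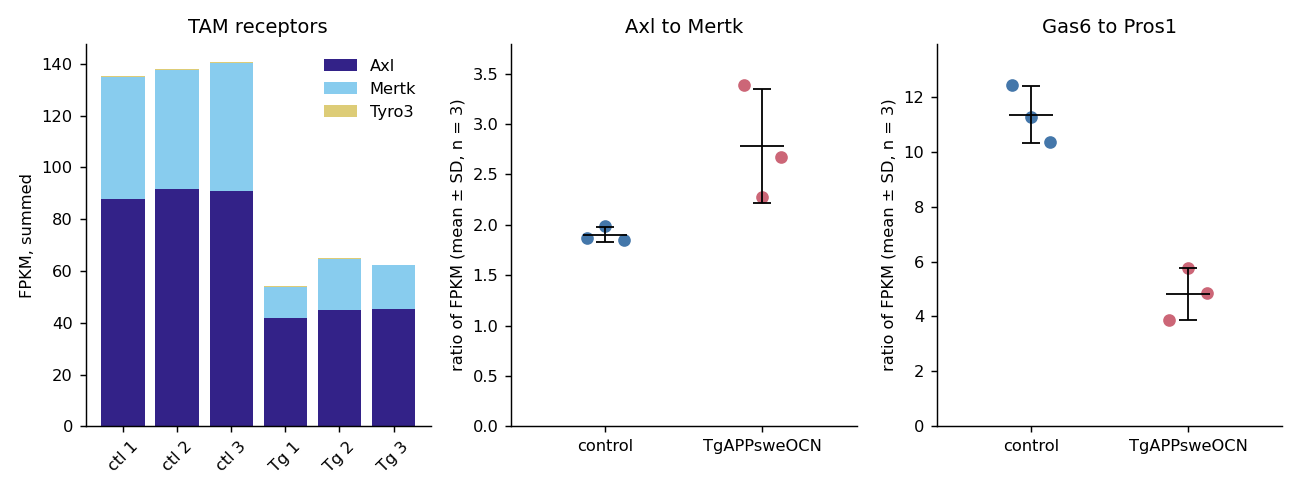
Left, FPKM of Axl, Mertk and Tyro3 stacked for each control (ctl) and TgAPPsweOCN (Tg) library. Middle and right, ratios of FPKM of Axl to Mertk and of Gas6 to Pros1 by genotype, with points for libraries and bars for mean ± SD. The receptor sum is lower, the Axl to Mertk ratio higher (1.90 to 2.78 on average) and the Gas6 to Pros1 ratio lower (11.3 to 4.83 on average) in TgAPPsweOCN.

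Mfge8 (Entrez 17304, chr7:79133768-79149060, minus strand) was measured at 57.87, 76.51 and 65.62 FPKM in the control libraries. The TgAPPsweOCN libraries held 18.01, 25.06 and 19.01 FPKM. Controls were more spread for this gene than for the receptors, yet the groups lay far apart, with 66.7 ± 9.36 against 20.7 ± 3.81 FPKM (SD, n = 3), or 31.0% of control. The log2 fold change of -1.49 (SE 0.135, 95% interval -1.80 to -1.18) was a 2.81-fold fall with an edgeR adjusted p of 2.22e-05. Its size was close to those of Gas6 and Mertk, and the 95% intervals of all 3 overlapped.

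Elmo1 (Entrez 140580, chr13:20090507-20608353, plus strand) went the other way. Its levels were 48.64, 52.18 and 54.38 FPKM in controls and 66.54, 71.93 and 70.02 FPKM in TgAPPsweOCN. All 3 TgAPPsweOCN libraries were higher, at 134% of the control mean in FPKM (51.7 ± 2.90 to 69.5 ± 2.73 FPKM, SD, n = 3). Elmo1 rose by 0.66 on the log2 scale (SE 0.0571, 95% interval 0.53 to 0.79, edgeR adjusted p 1.68e-05), a 1.58-fold rise short of the fold threshold. Gulp1 (Entrez 70676, chr1:44551380-44796838, plus strand) was as scarce as Tyro3, with 24, 22 and 27 estimated counts in controls and 22, 30 and 23 in TgAPPsweOCN. Its groups overlapped at 0.423 ± 0.0513 and 0.393 ± 0.0681 FPKM (SD, n = 3). The 95% interval of its log2 fold change, -0.47 to 0.65 around 0.09, leaves room for a moderate difference in either direction (edgeR adjusted p 0.757).

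**Figure D3:**
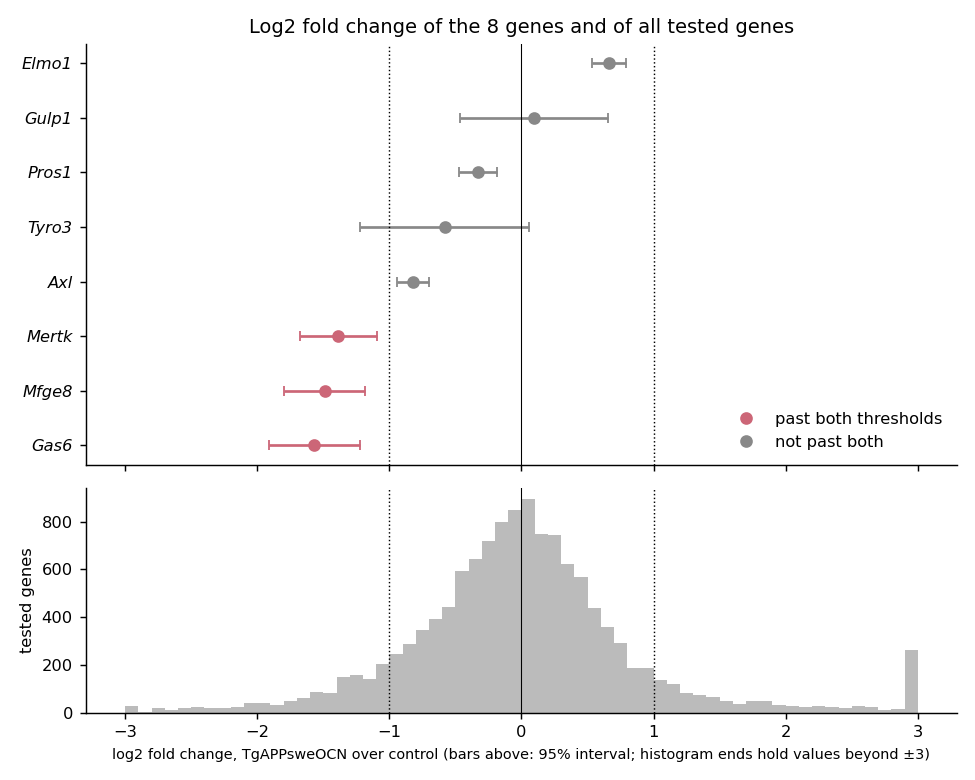
Above, log2 fold change of TgAPPsweOCN over control for the 8 genes, with 95% intervals as bars and the genes past both thresholds in red. Below, the number of tested genes per bin of log2 fold change, with values beyond 3 in size in the end bins. Gas6, Mfge8 and Mertk lie past -1, Axl and Pros1 between -1 and 0, Elmo1 at 0.66, and the intervals of Tyro3 and Gulp1 include 0.

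In FPKM, 6 of the 8 genes were lower in all TgAPPsweOCN libraries than in any control library, 1 was higher in all, and 1 overlapped. Over all tested genes 48.3% were lower in all, 24% were higher in all, and 72.3% had no overlap in either direction. The TgAPPsweOCN libraries kept nearly one order over these genes. Replicate 1 was the lowest for 7 of the 8 and replicate 2 the highest for 7 of the 8. The same libraries also differed in markers, with Adgre1 at 2100 FPKM in replicate 1, 1462 FPKM in replicate 2 and 1766 FPKM in replicate 3, and Col1a1 at 26.9, 41.5 and 36.3 FPKM. Mmp9 was at 169, 69.3 and 124 FPKM in the same replicates. The part of these differences in the order of the 8 genes was not tested.

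Other genes of the pathway were read from 7 lists of 145 genes, grouped by role, of which 139 could be tested. In all, 18 were up-regulated and 21 down-regulated (28.1% of those tested, against 18.1% of all tested genes), and the median log2 fold change was -0.13. The lists were chosen with earlier results of these data known, so this share is not independent of the values. Of these 39 genes, 28 passed both thresholds in the same direction under every alternative processing. Where a member of a list is named below without being among the 4 with the largest change in its list, it was chosen after its values were seen.

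Partners of the TAM receptors and enzymes of the vitamin K cycle had 3 up-regulated and 1 down-regulated of 12 tested genes, and a median of 0.10 that turned to -0.11 with library totals as the only scaling. Socs1 and Socs3, inhibitors of cytokine signalling that TAM receptors are known to induce, rose from 2.22 ± 0.155 to 13.8 ± 0.203 FPKM and from 20.0 ± 1.497 to 55.2 ± 4.86 FPKM (SD, n = 3). Their log2 fold changes were 2.85 and 1.68. Lgals3, reported elsewhere as a further ligand of Mertk, fell from 889 ± 97.0 to 221 ± 13.4 FPKM (-1.79 on the log2 scale, edgeR adjusted p 7.14e-07). Ggcx, the carboxylase that readies Gas6 and protein S to bind lipid, and Vkorc1, which recycles its vitamin K, fell by 0.43 and 0.51 on the log2 scale (edgeR adjusted p 0.00250 and 0.000567), short of the fold threshold. Vkorc1l1, which acts like Vkorc1, rose by 0.31 (edgeR adjusted p 0.00867), with FPKM values that overlapped between the genotypes. Ifnar1 had a log2 fold change of -0.68, and Adam17, a protease that sheds Mertk from the cell surface, 0.52.

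Further receptors and bridging proteins for dying cells had 9 down-regulated and 1 up-regulated of 27 tested genes. By the adjusted p alone 17 fell and 4 rose, where 31.5% of all tested genes fell and 32.5% rose. The median was -0.65. The 4 largest changes were falls, in Cd300a (64.0 ± 3.08 to 12.3 ± 2.02 FPKM, log2 fold change -2.14), Cd300lb (106 ± 3.68 to 22.3 ± 0.576 FPKM, -2.04), Cd300lf (14.5 ± 1.06 to 2.90 ± 0.535 FPKM) and Havcr2 (7.76 ± 2.43 to 1.69 ± 0.549 FPKM, -1.98). Cd300 proteins bind phosphatidylserine and other lipids, and Havcr2 encodes Tim-3. Counts of Cd300a and Cd300lf were fractional in part, which marks reads shared with other genes, so their values are less certain. Itgb3 and Itgb5, the beta chains with which the alpha-v integrin binds Mfge8, fell by 1.58 and 1.78 on the log2 scale, and Itgb5 was the abundant one (294 to 73.6 FPKM). Itgav, the alpha-v chain, had a log2 fold change of -0.25 (edgeR adjusted p 0.135). Stab1, Stab2 and Pear1 were the other down-regulated genes. Stab2, a receptor that engages Gulp1, was scarce in both genotypes, at 0.27 to 0.36 FPKM in controls and 0.05 to 0.08 FPKM in TgAPPsweOCN. Cd36, a scavenger receptor, was the only up-regulated gene of the list (130 ± 15.3 to 230 ± 38.3 FPKM, log2 fold change 1.05), and was called under 9 of 14 alternatives.

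**Figure D4:**
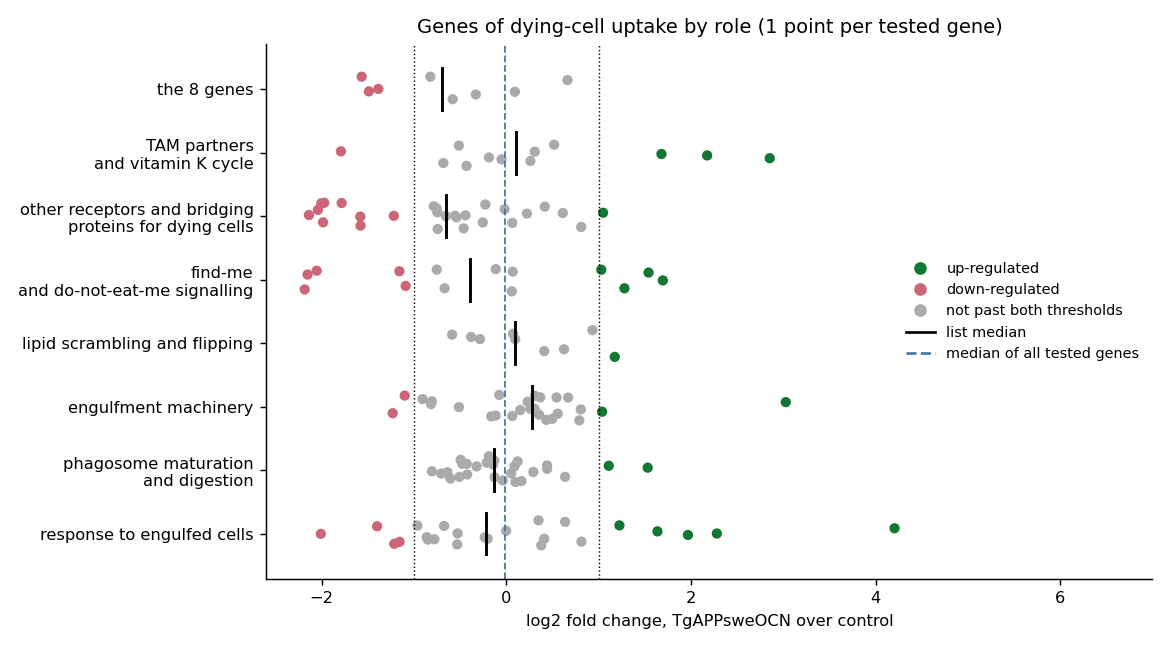
Log2 fold change of every tested gene of the 8 and of the 7 lists, 1 row per list, with up-regulated genes in green, down-regulated genes in red and the rest in grey. Black bars are list medians, the dashed line is the median of all tested genes and the dotted lines are the fold threshold. The row of other receptors and bridging proteins has the lowest median of the lists (-0.65), and the engulfment machinery the highest (0.28, or 0.07 with library totals as the only scaling).

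Find-me and do-not-eat-me signals had 4 up-regulated and 5 down-regulated of 14 tested genes, with a median of -0.39. Of the receptors for signals from dying cells, falls were measured in the nucleotide receptor P2ry12 (15.7 ± 1.28 to 2.97 ± 0.337 FPKM, log2 fold change -2.18), the sphingosine 1-phosphate receptor S1pr1 (48.5 ± 5.94 to 9.40 ± 0.890 FPKM, -2.15) and the fractalkine receptor Cx3cr1 (97.8 ± 6.67 to 20.2 ± 1.22 FPKM, -2.05). P2ry2, a nucleotide receptor with the same role, rose from 3.58 ± 0.638 to 8.93 ± 0.445 FPKM (1.54). Pilra, an inhibitory receptor with fractional counts, rose from 26.0 ± 2.96 to 72.4 ± 12.2 FPKM (1.70). Cd47, the do-not-eat-me signal, rose from 53.9 ± 2.01 to 120 ± 4.96 FPKM (1.28), and its receptor Sirpa had a log2 fold change of 0.06 (edgeR adjusted p 0.365). Of 9 tested genes that move phosphatidylserine across the membrane, 1 was up-regulated, the scramblase Xkr8 (3.82 ± 0.276 to 7.47 ± 0.682 FPKM, log2 fold change 1.17), and 0 down-regulated. Xkr8 had fractional counts and stayed under the fold threshold with library totals as the only scaling (0.96).

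The engulfment machinery around Elmo1 had 2 up-regulated and 2 down-regulated of 26 tested genes (median 0.28). By the adjusted p alone 16 rose and 6 fell, where 32.5% of all tested genes rose and 31.5% fell. With library totals as the only scaling 1 was up-regulated and 5 were down-regulated, and the median was 0.07. Rac2, a blood-cell Rac that assembles actin and the oxidase, rose from 120 ± 12.3 to 843 ± 20.2 FPKM (log2 fold change 3.03), with fractional counts. Dock1, an exchange factor that works with Elmo1, fell from 8.99 ± 0.275 to 3.61 ± 0.179 FPKM (-1.10), whereas Dock2, the Elmo1 partner of blood cells, was the more abundant one at 65.9 and 66.9 FPKM and had a log2 fold change of 0.26. The motor protein Myo1f fell from 188 ± 4.08 to 69.1 ± 5.90 FPKM (-1.23), and Abi1, a subunit of the WAVE complex that drives actin branching, rose from 76.6 ± 6.64 to 135 ± 5.04 FPKM (1.04, or 0.82 without TMM). Abi1 also had fractional counts and was called under 9 of 14 alternatives.

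Phagosome maturation and digestion had 2 up-regulated and 0 down-regulated of 27 tested genes (median -0.13). By the adjusted p alone 7 rose and 11 fell, where 32.5% of all tested genes rose and 31.5% fell. Plbd2, a lysosomal protein, rose from 62.0 ± 4.31 to 154 ± 3.45 FPKM (log2 fold change 1.53) and the small GTPase Rab20 from 22.2 ± 0.818 to 42.3 ± 3.39 FPKM (1.11). With library totals as the only scaling Rab20 was short of the fold threshold (0.89), and the list had 1 up-regulated and 1 down-regulated gene. Genes that respond to an engulfed cell had 5 up-regulated and 4 down-regulated of 24 (median -0.22). With library totals as the only scaling 5 were up-regulated and 7 down-regulated (median -0.43). With limma on log2(FPKM + 1) these counts were 3 and 7. Il10, which encodes an anti-inflammatory cytokine, rose from 8.46 ± 0.560 to 35.5 ± 5.95 FPKM (2.28), and Nr1h3, the oxysterol receptor LXR alpha, from 19.9 ± 0.737 to 66.7 ± 1.97 FPKM (1.97).

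Over log2 CPM of the 6 libraries, the genes most like Gas6 were Gbp8 (Pearson r 0.9996), Kif4 (0.9990) and Hacd4 (0.9990), and 196 tested genes had an r above 0.99. The genes most like Elmo1 were Rhoq (0.9996), Ascc3 (0.9995) and Ggta1 (0.9993), among 405 above 0.99. With only 6 libraries in 2 genotypes, such values rest mostly on the step between the genotypes and are a description.

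**Figure D5:**
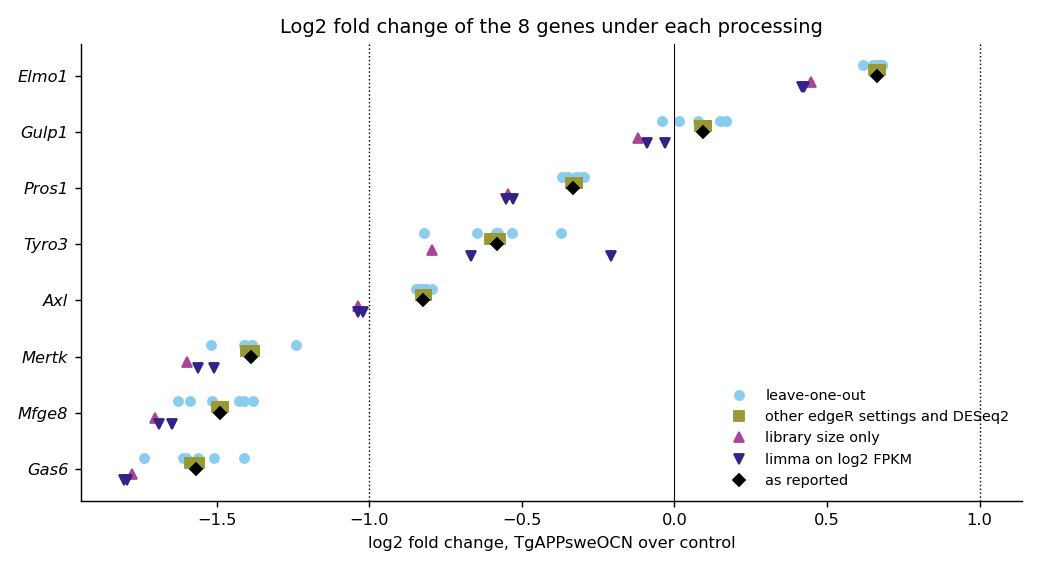
Log2 fold change of TgAPPsweOCN over control for each of the 8 genes under each processing, with the reported value as a black diamond and the fold threshold dotted. Gas6, Mfge8 and Mertk stay past -1 under all alternatives, Axl crosses -1 without TMM and with limma on log2 FPKM, and Gulp1 changes sign.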

How the data were processed

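Per the labels and the methods of the study, total RNA of sorted cells was sequenced on a DNBSEQ platform, and the submitters' processing notes name HISAT2 2.0.4, Bowtie2 2.2.5, RSEM 1.2.12, DESeq2 1.4.5 and the mm10 genome. The authors deposited estimated counts, fractional for 13.3% to 14.4% of genes per library but for none of the 8 genes, so that reads shared between similar genes were divided among them. The authors also deposited FPKM values for the same genes. A further deposited table holds the authors' own log2 ratios and p-values and was not used. Strand use in counting was not given in the sources used here.

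Rounded estimated counts of the 2 genotypes entered edgeR 4.0.16 (R 4.3.3; filterByExpr, TMM, quasi-likelihood test, no replicate block), with Benjamini-Hochberg adjustment over the 12701 tested genes. Thresholds were those of the study, an adjusted p of at most 0.05 and a change of 1 or more in size on the log2 scale. The biological coefficient of variation was 9.85%. Single ratios were compared by exact permutation tests. Between libraries of one genotype the squared differences, as a median over genes, were 2.65 to 6.61 times what sampling noise gives. That is more than 1 library deposited more than once would show. Alternatives were DESeq2 1.42.0, RLE size factors, library totals only, 2 other count filters, a replicate block, limma 3.58.1 on log2(FPKM + 1) or log2(FPKM + 0.1), no fold threshold, and leaving out each library. The procedure was tested on simulated data.

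The 8 genes, the 7 lists and the marker lists were chosen with earlier results of these data known. Named genes are the 8, up to 4 called genes without FPKM overlap and of largest log2 fold change in each list, the 3 genes most correlated with the gene that rose most and with the gene that fell most, defining markers, and App. A few genes under this rule are not reported here. Gene positions and promoter sequences are from RefSeq, build GRCm38.p6, matched by symbol for all 8 genes, and motif matches were counted in all 32851 windows. Tables were prepared in Python 3.11.15 with pandas 2.3.3 and drawn with matplotlib 3.10.9.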

Additional observations from a re-analysis of the deposited data

How the results depend on the processing

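Mertk, Gas6 and Mfge8 were down-regulated under all 14 alternatives, with log2 fold changes of -1.60 to -1.24, -1.80 to -1.41 and -1.70 to -1.38. Pros1 (-0.55 to -0.30) and Elmo1 (0.42 to 0.68) kept their direction and their adjusted p at or below 0.05 in all 14 but never passed the fold threshold. Axl kept its adjusted p in all 14 and passed the fold threshold in 3, with library totals only (-1.04) and with limma (-1.02 on log2(FPKM + 1), -1.04 on log2(FPKM + 0.1)). The adjusted p of Tyro3 ran from 0.0210 to 0.296 and passed 0.05 in 4 of 14, and its log2 fold change from -0.82 to -0.21. Gulp1 turned negative with library totals only (-0.12), with limma (-0.031 and -0.089), and without TgAPPsweOCN replicate 2 (-0.040), in a range of -0.040 to 0.17 over single libraries left out. In each case the cause was not tested.

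Without a fold threshold 4122 genes rose and 4007 fell, 1 and 5 of the 8, and 51 and 59 of the lists. Limma with a pseudocount of 1 called 593 genes up, and 11 of the lists. Library totals only moved the split of all called genes from 49.2% up to 32.8% up (846 up, 1732 down) and that of the lists from 46.2% to 31.0% (13 up, 29 down), and turned the medians of TAM partners and of lipid movement to -0.11 and -0.12. Leaving out single libraries gave 1103 to 1150 genes up and 1125 to 1262 down, with 3 of the 8 down each time.

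Replicate numbers of the labels were not shown to pair the libraries. Same-numbered libraries deviated together with correlations of 0.01, 0.01 and 0.14, and libraries of unlike number with -0.05 to 0.03. With 3 libraries per genotype such values cannot exclude pairing. With the replicate block 1115 genes rose and 1147 fell past both thresholds, 3 of the 8 were down, and log2 fold changes were -1.40 for Mertk, -0.82 for Axl, -1.59 for Gas6 and -1.49 for Mfge8. With 3 libraries per genotype and counts under 40, differences in Tyro3 and Gulp1 are poorly resolved.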
